A study of Triticum aestivum with 6 samples.

Results

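The 4 transcription factor genes of wheat crown tissue described here were each read by 1 probe of an array with 37826 probes. They are a MYB44-like factor (probe wheat0130Contig2276), a secondary wall NAC factor (rwhh21m11), a bZIP factor (wheat0130Contig13733) and a root abundant factor (wheat0130Contig5738). The 4 probes were taken by name from the study's list of the transcription factors that rose most in the dwarf line crt/KU-2025 against wild type on these same arrays. The difference between crt/KU-2025 and wild type therefore chose them, and it is given as a description with no p-value.

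Crown tissue, the stem base that carries the shoot apex and the tiller buds, was taken from 3 synthetic hexaploid wheat lines, with 2 arrays for each line and 6 in all. Synthetic hexaploids are made by crossing a tetraploid wheat, which brings the A and B genomes, with the wild grass Aegilops tauschii, which brings the D genome. The wild type (WT) was Ldn/KU-2059, from the durum cultivar Langdon (Ldn) and Ae. tauschii KU-2059. The dwarf line Ldn/KU-2025 has the tetraploid parent of WT and the Ae. tauschii parent KU-2025, and the dwarf line crt/KU-2025 has that same Ae. tauschii parent and a tetraploid parent of the subspecies carthlicum. The age was 8 weeks, the temperature 24°C and the day 18 h of light with 6 h of dark for every line. At this temperature the dwarf lines grow as grass clumps, and in the cold they show type II necrosis, a hybrid weakness. Each line is the progeny of a single cross, so a difference between lines includes everything in which their parents differ. The labels name replicates without saying whether they are separate plants, and the study's methods speak of independent experiments. The p-values therefore measure only the spread between these samples. No markers of crown tissue were fixed, so the tissue label was not tested against markers.

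The 4 genes belong to separate families of DNA-binding proteins. MYB44 of Arabidopsis is an R2R3-MYB factor that acts in the response to abscisic acid (ABA) and in stomatal closure under drought and salt. It lowers the expression of some protein phosphatase 2C genes, those whose products restrain ABA signaling. Secondary wall NAC factors are master switches of the cellulose and lignin genes that thicken the walls of vessels and fibers, and the closest match of the wheat probe is such a factor of maize. The bZIP factors dimerize through a leucine zipper and bind DNA with an ACGT core. The study matched the bZIP probe to a bZIP factor of maize in one list and to an FD-like protein of wheat in another, FD being the bZIP partner of the florigen FT at the shoot apex in Arabidopsis. The root abundant factor of barley is an AP2/ERF protein of the ethylene response factor type that raised resistance to a pathogen and tolerance to salt when it was expressed in Arabidopsis.

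All signals are scaled signals, that is, the processed fluorescence of a spot after every array was brought to a trimmed mean of 2500. They have no absolute unit, and a probe is compared only with itself across lines. The 4 probes were well above background on all 6 arrays, with 0 outlier flags and 0 saturated spots, and their spots were between 3.80 and 149 times as bright as the local background. Log2 ratios and adjusted p-values come from a limma model of all 6 arrays and all 37826 probes, with Benjamini-Hochberg adjustment over all of them. A probe passed the test at an adjusted p under 0.05, and it was called where it also differed by at least 3-fold. Over all probes, the median log2 ratio was -0.02 for Ldn/KU-2025 against WT and 0.10 for crt/KU-2025 against WT. The WT and Ldn/KU-2025 arrays shared slide 1, and slide 2 held only the crt/KU-2025 arrays, so line and slide cannot be told apart for crt/KU-2025. In bulk tissue, fewer cells of a type and less RNA per cell cannot be told apart.

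The MYB44-like probe was lowest in WT, higher in Ldn/KU-2025 and highest in crt/KU-2025. Its scaled signals were 112 and 123 on the WT arrays, 491 and 533 on the Ldn/KU-2025 arrays, and 1656 and 1353 on the crt/KU-2025 arrays. The 3 lines did not overlap, and replicates differed by 9.90% for WT, 8.55% for Ldn/KU-2025 and 22.3% for crt/KU-2025. The means were 117 ± 7.82 (SD, n = 2), 512 ± 29.7 (SD, n = 2) and 1505 ± 214 (SD, n = 2).

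The secondary wall NAC probe gave nearly the same signal in WT and Ldn/KU-2025 and was high in crt/KU-2025 alone among the 3 lines. Its scaled signals were 101 and 111 on the WT arrays, 109.5 and 119 on those of Ldn/KU-2025 and 1197 and 1223 on those of crt/KU-2025. The WT and Ldn/KU-2025 signals overlapped, and both crt/KU-2025 signals lay far above them. The means were 106 ± 7.43 (SD, n = 2), 114 ± 6.87 (SD, n = 2) and 1210 ± 18.3 (SD, n = 2).

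The bZIP probe was the only one of the 4 whose lowest signals were in Ldn/KU-2025. Its scaled signals were 176 and 164 on the WT arrays, 96.5 and 97.1 on those of Ldn/KU-2025 and 1001 and 814 on those of crt/KU-2025. No lines overlapped, and the replicates lay within 0.697% of each other in Ldn/KU-2025 but 22.9% apart in crt/KU-2025. The means were 170 ± 8.48 (SD, n = 2), 96.8 ± 0.475 (SD, n = 2) and 908 ± 132 (SD, n = 2).

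The root abundant factor probe followed the order of the MYB44-like probe, with a smaller step from WT to Ldn/KU-2025. Its scaled signals were 1136 and 998 on the WT arrays, 2132 and 2035 on those of Ldn/KU-2025 and 8297 and 8078 on those of crt/KU-2025. The lines did not overlap, and the largest replicate difference was 13.8%, in WT. The means were 1067 ± 97.7 (SD, n = 2), 2084 ± 68.7 (SD, n = 2) and 8187 ± 155 (SD, n = 2).

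**Figure D1:**
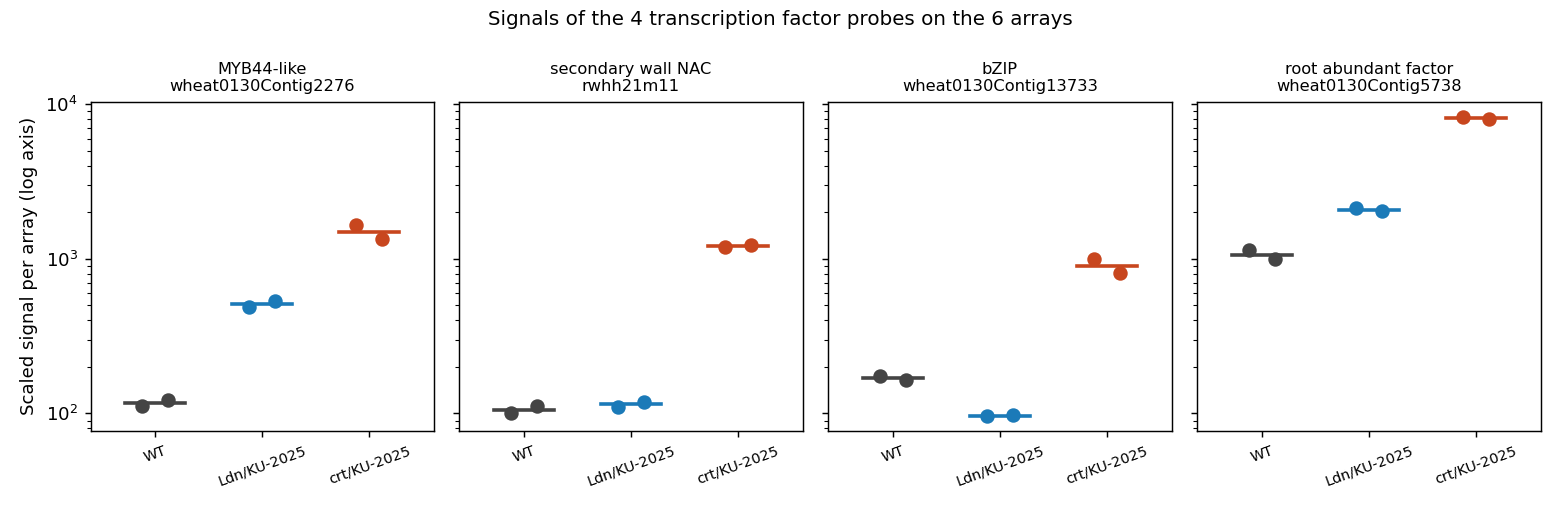
Scaled signal (log axis) of the 4 probes on each array; points are arrays and horizontal lines are means of the log2 signals of the 2 arrays of a line. The crt/KU-2025 signals are the highest for every probe, while Ldn/KU-2025 lies above WT for the MYB44-like and root abundant factor probes, overlaps WT for the NAC probe (109.5 and 119 against 101 and 111) and lies below WT for the bZIP probe.

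Comparing Ldn/KU-2025 to WT, which has the same tetraploid parent, asks how the 4 genes behaved in a dwarf line that was not used to choose them. They gave 4 different answers: MYB44-like rose strongly, root abundant factor rose less, bZIP fell, and for the NAC probe no difference was detected. Of the 4, limma called 1 higher, against 0.97% of all probes. It called 0 lower, against 0.196% of all probes, as did the methods' t-test, although 1 was lower at an unadjusted p under 0.05. At the adjusted p alone, 2 of the 4 were higher and 1 was lower, against 6.34% and 1.48% of all probes. The WT arrays also took part in the choice of the probes.

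In Ldn/KU-2025, MYB44-like was 4.37-fold above WT (95% confidence interval 3.42 to 5.58). Its log2 ratio was 2.13 ± 0.13 (SE), and limma's adjusted p was 0.00859. The 4 pairs of a Ldn/KU-2025 and a WT array gave folds between 4.0 and 4.77, and 0.827% of all probes had a higher ratio. With normexp background correction the ratio was 2.48-fold (log2 ratio 1.31, adjusted p = 0.00676), which passed the test but not the 3-fold limit, so that the call was lost. Root abundant factor was 1.96-fold higher (1.65 to 2.32), at a log2 ratio of 0.97 ± 0.09 (SE) and an adjusted p of 0.0161, and 4.88% of all probes had a higher ratio. It passed the test but not the 3-fold limit.

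The bZIP probe was 1.75-fold lower in Ldn/KU-2025, at a log2 ratio of -0.81 ± 0.12 (SE) and an adjusted p of 0.0375 in limma, also short of 3-fold. The 4 pairs of arrays gave between 1.68-fold and 1.82-fold lower signals, and 3.83% of all probes had a lower ratio. The NAC probe was 1.08-fold higher with an interval from 0.916 to 1.27, a log2 ratio of 0.11 ± 0.09 (SE) and an adjusted p of 0.457. It was higher in 3 of the 4 pairs of arrays, and the interval leaves room for a modest change either way.

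These passes rest on both arrays of each line. With any 1 of the WT or Ldn/KU-2025 arrays left out, the adjusted p in limma was 0.0697 to 0.0883 for MYB44-like, 0.174 to 0.209 for bZIP and 0.0754 to 0.137 for root abundant factor, with the directions kept and log2 ratios of 2.06 to 2.20, -0.86 to -0.76 and 0.88 to 1.06. Over all probes, these fits passed between 0.201% and 0.677%, against 7.83% in the fit of all arrays. In the 4 arrays of slide 1 alone, without crt/KU-2025, the adjusted p was 0.00792 for MYB44-like, 0.379 for NAC, 0.0113 for bZIP and 0.0152 for root abundant factor. That fit passed 33.8% of all probes, 18% as higher and 15.9% as lower.

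The dwarf lines share the Ae. tauschii parent and differ in the tetraploid parent. Their comparison describes how far the signals differed between these backgrounds. All 4 probes had their higher signals in crt/KU-2025, and the NAC and bZIP probes differed most. All 4 passed the test, against 34.4% of all probes that were higher at the adjusted p, and 3 were called higher, against 9.39% of all probes, while 9.98% of all probes were called lower. The crt/KU-2025 arrays had chosen the probes for high signals. The counts, adjusted p-values and intervals of this comparison are therefore not independent of the choice and are given as a description.

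The NAC probe of crt/KU-2025 stood 10.6-fold above that of Ldn/KU-2025 (9.0 to 12.5), at a log2 ratio of 3.40 ± 0.09 (SE) and an adjusted p of 9.62e-05 in limma. The bZIP probe was 9.33-fold higher (7.41 to 11.7), at a log2 ratio of 3.22 ± 0.12 (SE) and an adjusted p of 0.000198. Root abundant factor was 3.93-fold higher (3.32 to 4.65), at a log2 ratio of 1.97 ± 0.09 (SE) and an adjusted p of 0.000282. With normexp the NAC and bZIP probes were 5.20-fold and 4.53-fold higher, and both were still called.

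MYB44-like was 2.93-fold higher (2.29 to 3.74), at a log2 ratio of 1.55 ± 0.13 (SE) and an adjusted p of 0.00115 in limma, just short of the 3-fold limit. It passed that limit without replicate 2 of Ldn/KU-2025 (log2 ratio 1.61) and without replicate 2 of crt/KU-2025 (1.69), since the pairs of arrays lay between 2.54-fold and 3.37-fold. For this probe the step from WT to Ldn/KU-2025 was the larger of the steps on the log2 scale, 2.13 against 1.55, whereas for the other 3 the step from Ldn/KU-2025 to crt/KU-2025 was the larger. The difference between these steps was not tested.

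Against WT, which is the comparison that chose them, the crt/KU-2025 signals were 12.8-fold higher for MYB44-like, 11.4-fold for NAC, 7.69-fold for root abundant factor and 5.33-fold for bZIP. The log2 ratios were 3.68, 3.51, 2.94 and 2.41, with standard errors of 0.13, 0.09, 0.09 and 0.12. With normexp the ratios were 6.19-fold for root abundant factor, 5.39-fold for MYB44-like, 5.24-fold for NAC and 3.13-fold for bZIP, so that the order of the 4 changed. In this comparison 11.8% of all probes were called higher and 11% lower, and 36.1% were higher and 25.9% lower at the adjusted p. For bZIP the ratio against WT was smaller than that against Ldn/KU-2025, because WT stood above Ldn/KU-2025.

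**Figure D2:**
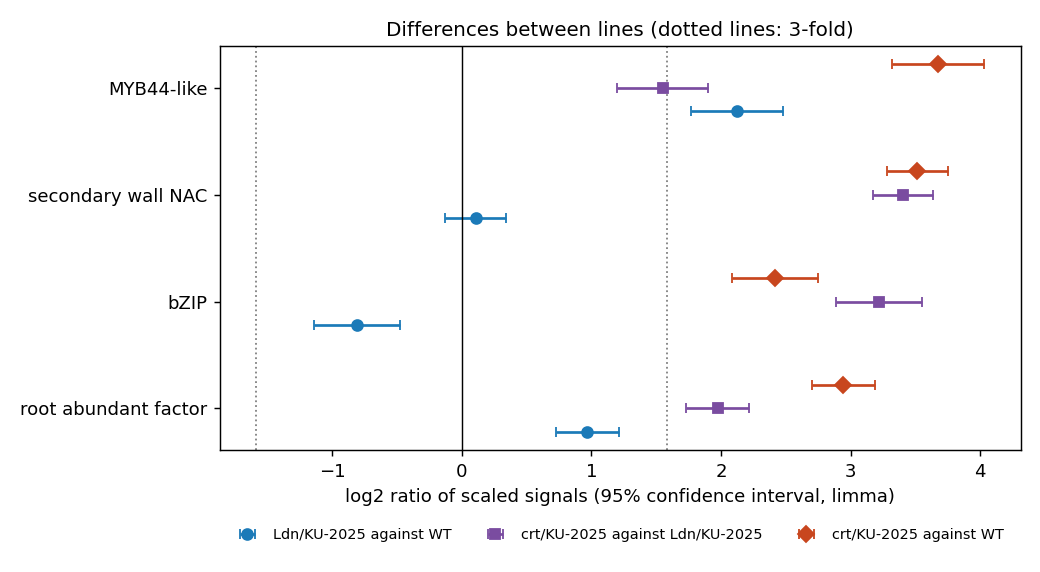
Log2 ratios of the 4 probes in the 3 comparisons between lines, with 95% confidence intervals from limma; dotted lines mark 3-fold and the solid line marks no difference. The intervals of Ldn/KU-2025 against WT lie above 0 for MYB44-like and root abundant factor, across 0 for NAC and below 0 for bZIP, and the ratios of crt/KU-2025 against Ldn/KU-2025 run from 1.55 to 3.40.

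The order of the levels was thus WT, Ldn/KU-2025, crt/KU-2025 for MYB44-like and root abundant factor, and Ldn/KU-2025, WT, crt/KU-2025 for bZIP, with each neighbor apart by more than the spread between replicates. For NAC the neighbors WT and Ldn/KU-2025 did not differ beyond their spread. To describe how alike the 4 patterns were, each probe was centered on its own mean log2 signal over the 6 arrays and the root mean square difference between probes was taken. The closest pairs were MYB44-like with root abundant factor, at 0.50, and NAC with bZIP, at 0.50. The least alike were MYB44-like and bZIP, at 1.20. All 4 share high crt/KU-2025 signals by the way they were chosen.

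The same measure over the 25864 probes well above background on all 6 arrays gave the closest patterns for each gene. For MYB44-like these were a NAC factor 29-like probe, MUGEST2003_23lib_Contig2815_329, at 0.157, an aquaporin PIP1-5 probe, wheat0130Contig5918, at 0.182, and a probe for exocyst complex component 7, MUGEST2003_23lib_Contig5546_523, at 0.185. Aquaporins of the PIP class are water channels of the plasma membrane, and the exocyst tethers secretory vesicles to it. The aquaporin probe had scaled signals of 1300 and 1271 on the WT arrays, 4548 and 5045 on those of Ldn/KU-2025 and 12688 and 13385 on those of crt/KU-2025. It thus repeated the steps of MYB44-like, and only 12 probes lay within 0.25 of that gene.

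For root abundant factor, 236 probes lay within 0.25, led by whr13d22 at 0.0558, a probable F-box protein probe, whsh_allContig69, at 0.0641, and MUGEST2003_23lib_Contig3524_610 at 0.0718. F-box proteins choose the targets of ubiquitin ligases. For NAC, 118 probes lay within 0.25, the nearest being wheat0130Contig10478, wheat0130Contig5024 and whms12p06_298 at 0.0696, 0.0773 and 0.0804. For bZIP, 23 probes lay within 0.25, the nearest being wheat0130Contig10735, whsh_allContig566 and wheat0130Contig5068 at 0.111, 0.148 and 0.157. These probes of the NAC and bZIP patterns had no description in the tables used here.

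**Figure D3:**
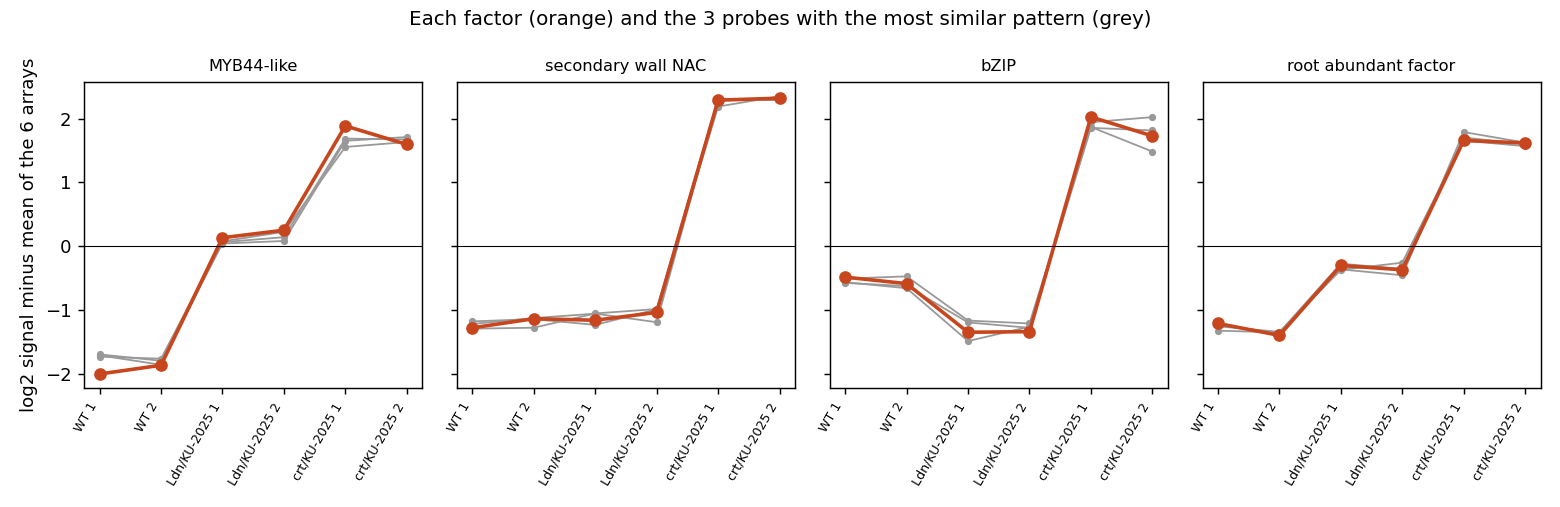
Log2 signal of each factor (orange) and of its 3 closest probes (grey) on the 6 arrays, each minus its own mean; lines join the arrays of a probe. The NAC panel is flat across WT and Ldn/KU-2025, the bZIP panel dips in Ldn/KU-2025, and the other panels climb in steps, with 12, 118, 23 and 236 probes within 0.25 of MYB44-like, NAC, bZIP and root abundant factor.

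Relatives and pathway genes were taken from the study's lists of changed probes, so each list is counted in a line that did not choose it, although the same WT arrays took part in the choice. An exception is a comparison of the dwarf lines for the secondary wall list. The counts in Ldn/KU-2025 rest on both arrays of each line: with any 1 of the WT or Ldn/KU-2025 arrays left out, between 0 and 1 probe of a list passed the test, while as many or more passed in fits without a crt/KU-2025 array. Of the probes listed as higher in crt/KU-2025, in the portion of that list used here, 9 further ones were of the MYB type. In Ldn/KU-2025 against WT, 2 of the 9 passed the test, both higher, and the other 7 did not, against 6.34% of all probes. On slide 1 alone, 3 passed as higher, against 18% of all probes. Their median log2 ratio was 0.29, beside -0.02 over all probes, and none reached the 2.13 of MYB44-like. The highest were MYBAS2 (wheat0130Contig11130), at 0.78 with an adjusted p of 0.0158, and a MYB1R1-like probe (whh1g13), at 0.68 with 0.0537. The lowest was an ETC3 probe (whsh_allContig1032), at -0.55 with 0.175. The study listed 2 MYB probes, MYB86 (wheat0130Contig1588) and a Myb-related probe (rwhca6l20_454), as higher in Ldn/KU-2025, beside MYB44-like itself. Both were called higher in crt/KU-2025 against WT, against 11.8% of all probes, with log2 ratios of 1.74 and 2.05.

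The NAC factors listed as higher in crt/KU-2025, 5 beside the secondary wall NAC, moved unevenly in Ldn/KU-2025. Against WT, 3 of the 5 passed the test, all higher, against 6.34% of all probes, and 2 did not. The median log2 ratio was 0.96. A NAC domain-containing probe (rwhr20e07) had a log2 ratio of 1.05 with an adjusted p of 0.0132. The NAC domain 21/22 probe (wheat0130Contig3985) was on neither WT array well above background, and its signal in Ldn/KU-2025 was at least 1.97-fold higher (adjusted p = 0.0238). For such a bound, each WT array was given the probe's own signal or the lowest signal well above background on that array, whichever was higher. Another NAC domain-containing probe (rwhdl6m04) gave a log2 ratio of -0.18 with an adjusted p of 0.209, with no detected difference, as for the secondary wall NAC.

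The study listed 2 NAC probes as higher in Ldn/KU-2025, and they parted in crt/KU-2025. The NAC 29-like probe, also the closest pattern to MYB44-like, was called higher against WT, with a log2 ratio of 3.46. The NAC domain 8-like probe (wheat0130Contig2091) had scaled signals of 253 and 216 on the WT arrays, 870 and 912 on those of Ldn/KU-2025 and 187 and 180 on those of crt/KU-2025. Its crt/KU-2025 signals were below those of WT, at -0.35 with an adjusted p of 0.0376, a pass that was lost in every leave-one-out fit except the one without replicate 2 of WT.

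Genes of secondary wall formation, cellulose synthases, laccases and lignin enzymes, were listed by the study as higher in Ldn/KU-2025, the line in which no difference of the secondary wall NAC was detected. In crt/KU-2025 against WT, 8 of these 13 probes were called higher, against 11.8% of all probes. The test was passed by 11 as higher, against 36.1% of all probes, and by 1 as lower, against 25.9%, and 1 did not pass. The median log2 ratio was 2.78, beside 0.10 over all probes. The highest were a caffeic acid O-methyltransferase of lignin synthesis (wheat0130Contig4207), at 5.08, and a cellulose synthase A 9 (wheat0130Contig1302), at 3.49. A second cellulose synthase A 9 probe (wheat0130Contig11052) passed at 0.41. A laccase-4-like probe (wheat0130Contig12557), for an oxidase that joins lignin units, was lower, at -1.0 with an adjusted p of 0.0387, a pass that was lost without any 1 of the WT or Ldn/KU-2025 arrays. Its scaled signals were 379 and 345 on the WT arrays, 1350 and 1360 on those of Ldn/KU-2025 and 239 and 136 on those of crt/KU-2025. Between the dwarf lines, the secondary wall NAC was 10.6-fold higher in crt/KU-2025. There the median log2 ratio of the 13 list probes was 0.18, beside 0.11 over all probes. Of the 13, 1 was called higher and 2 lower, against 9.39% and 9.98% of all probes. The Ldn/KU-2025 arrays chose this list, so these values are not independent of the choice. A link between the NAC probe and the list was not tested.

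Phenylpropanoid enzymes, which make the lignin precursors, were listed as higher in crt/KU-2025. In Ldn/KU-2025 against WT, 5 of these 12 probes passed the test, all higher, against 6.34% of all probes, and 7 did not. The median log2 ratio was 0.53. On slide 1 alone, 8 passed, against 18% of all probes that were higher there. The highest were a caffeic acid O-methyltransferase (whr5e03), at 1.82, which is also on the list chosen in Ldn/KU-2025, and a phenylalanine ammonia-lyase (wheat0130Contig15604), the entry enzyme of the pathway, at 1.37. A cinnamyl-alcohol dehydrogenase family probe (wheat0130Contig9432) was at 0.01 with an adjusted p of 0.947. The lowest was a cinnamate 4-hydroxylase probe (wheat0130Contig3462), at -0.34 with an adjusted p of 0.516 in limma. It was well above background on no array of WT or Ldn/KU-2025.

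The probes grouped here as ABA-related, 6 protein phosphatase 2C probes and an abscisic stress ripening probe, were also listed as higher in crt/KU-2025. Their descriptions do not say which of these phosphatases act in ABA signaling, and this was not tested. In Ldn/KU-2025 against WT, 5 of the 7 passed the test, all higher, against 6.34% of all probes, and the median log2 ratio was 0.63. Of the 7, 6 passed on slide 1 alone, where 18% of all probes passed as higher. Phosphatase 2C 58 (wheat0130Contig13680) was called higher; on neither WT array was it well above background, and its Ldn/KU-2025 signal was higher by at least 3.58-fold. This probe is also on the study's list for Ldn/KU-2025. The abscisic stress ripening probe (wheat0130Contig7078) had a log2 ratio of 1.08 with an adjusted p of 0.00755, and phosphatase 2C 41 (whr1a22) had 0.42 with 0.0771.

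Relatives of the bZIP factor had log2 ratios from -1.15 to 0.85 in Ldn/KU-2025 against WT, with only G-box binding factor 3 below 0. Each missed the test in the fit of all arrays. For 3 bZIP probes listed as higher in crt/KU-2025, the log2 ratios were 0.85 for HBP-1a (rwhsd17k14_185), 0.49 for ABSCISIC ACID-INSENSITIVE 5 (rwhh13d16) and 0.18 for TGA4 (wheat0130Contig3504), with adjusted p-values of 0.0682, 0.0514 and 0.145 in limma, but all 3 passed as higher on slide 1 alone, against 18% of all probes, and 2 passed by the methods' t-test, against 8.12% of all probes. With log2 signals in the methods' t-test, 2 passed again, against 8.24%. Of 2 bZIP probes listed as lower in crt/KU-2025, G-box binding factor 3 (ATU17891) was at -1.15 with an adjusted p of 0.218 in limma and another HBP-1a probe (ncbi_gi_469055_1362) at 0.01 with 0.956. The study matched the G-box binding factor 3 probe to Arabidopsis thaliana. The study also listed the bZIP probe described here among factors that rose in Ldn/KU-2025 in the cold. A stress-related bZIP of that list (wheat0130Contig6503) had a log2 ratio of 1.35 in crt/KU-2025 against WT, which passed the test with an adjusted p of 0.000815.

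The AP2/ERF relatives of the root abundant factor had been listed for a fall in crt/KU-2025 or for a change in the cold. Of 4 AP2/ERF probes listed as lower in crt/KU-2025, 1 passed the test as lower in Ldn/KU-2025 against WT, against 1.48% of all probes. It was the AP2 probe rwhyf2e11, which fell by 0.86 on the log2 scale with an adjusted p of 0.0145 in limma. The median of the 4 was -0.21. Of 5 AP2/ERF probes listed for a change in cold-grown Ldn/KU-2025 plants, ERFL1a (ncbi_gi_32128574_754) was higher in crt/KU-2025 against WT, at 0.90 with an adjusted p of 0.00428. The CBFIVb-21.1 probe (wheat0130Contig8964) was lower with an adjusted p of 0.0473, but it was well above background on neither the WT nor the crt/KU-2025 arrays, and the pass was lost without either Ldn/KU-2025 array or without replicate 2 of crt/KU-2025. The other 3 did not pass the test, while 36.1% of all probes passed as higher and 25.9% as lower. The median log2 ratio of the 5 was -0.43, and 0.21 without replicate 2 of WT. This median was 0 with an AP2-like probe (MUGEST2003_23lib_Contig5735_588), not well above background in crt/KU-2025, set at its bound. Probes well above background on no array of either line kept their ratios.

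The other 7 factors of the list from which the 4 genes came, 4 of the WRKY family and 3 of others, ranged from -0.32 to 0.52 on the log2 scale in Ldn/KU-2025 against WT, around a median of 0.36. Of these 7, 2 passed the test, both higher, against 6.34% of all probes. They were a WRKY probe (MUGEST2003_23lib_Contig5310_624), at 0.51 with an adjusted p of 0.0416 in limma, and GATA 25 (MUGEST2003_23lib_Contig9158_829), at 0.52 with 0.0238. On slide 1 alone, 5 of the 7 passed, against 18% of all probes. The 2.13 of MYB44-like and the 0.97 of root abundant factor lay above this range, and the -0.81 of bZIP lay below it. These 7 were chosen in the same comparison as the 4 genes.

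**Figure D4:**
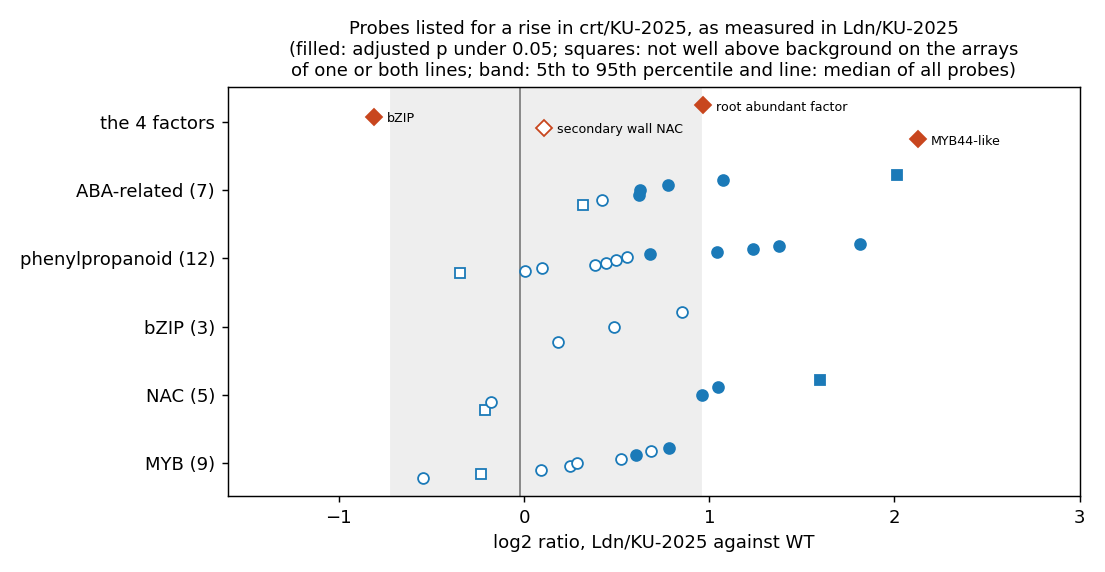
Log2 ratio of Ldn/KU-2025 against WT for probes that the study listed as higher in crt/KU-2025, by family or pathway (number of probes in brackets), with the 4 factors as diamonds; filled symbols passed the test, squares were not well above background on the arrays of 1 or both lines, and the band spans the 5th to 95th percentile of all probes (-0.72 to 0.95). MYB44-like lies right of the band at 2.13, root abundant factor just right of it at 0.97 and bZIP left of it at -0.81, while the NAC factor lies inside it at 0.11.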

How the data were processed

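The authors hybridized Cy3-labeled cRNA from crown tissues, 2 arrays for each of WT, Ldn/KU-2025 and crt/KU-2025, to the 1-color KOMUGI 38k Agilent array. The deposited scanner tables hold intensity values that Feature Extraction (9.5 in the submitters' processing notes, 10.7.3.1 in the file headers) had background-subtracted and spatially detrended, with no scaling across arrays. A table of scaled intensity values, deposited as well, differed from those computed here by at most 0.0806% for the 4 probes. Lines and replicates were taken from the sample labels.

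Control spots (1417 an array) were dropped. Signals were multiplied by 2500 over the mean trimmed of 2% at each end, as in the study's methods, with factors of 1.66 to 2.47, and log2 was taken without floor or pseudocount. Between 75.1% and 77.6% of the probes of an array were well above background. R 4.3.3 and limma 3.58.1 (lmFit, eBayes) fitted the model, which has 3 residual and 1.23 prior degrees of freedom and was tested on simulated data, and p-values were adjusted over all 37826 probes. Python 3.11.15 with pandas 2.3.3, numpy 2.4.6 and matplotlib 3.10.9 made the tables and plots. The number of arrays limits the precision.

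The 4 genes and all lists were chosen with earlier results of these data known. The probes named are the 4 genes, at most 4 probes of a list (those with the 2 highest and 2 lowest log2 ratios), and the 3 closest patterns of each gene. Lists were drawn from the tables of the study, of which the list of probes higher in crt/KU-2025 was held only in part. Alternatives tried were quantile normalization, 75th percentile scaling, the scaled table of the authors, normexp background correction (offset 50) on median spot signals, because the tables used here hold no mean spot signals, dim probes removed, each array omitted, replicate number as a block, only the compared lines in the fit, the methods' t-test (linear or log2 signals), and a 2-fold limit. The signals corrected by normexp were then quantile normalized. The list counts were recomputed under the same alternatives, a choice made after seeing the data. A slide block coincides with crt/KU-2025 and was not fitted. Of the probe names, 0 of 37826 matched the table of wheat reference genes (IWGSC CS RefSeq v2.1), so that no position or sequence is given, and which homoeologous copies a probe reads was not tested. The cold-grown plants, the RT-PCR and the small RNA data of the study were not analysed here.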

Additional observations from a re-analysis of the deposited data

How the results depend on the processing

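Across 15 alternatives the log2 ratios of the 4 probes kept their direction in all 3 comparisons. In Ldn/KU-2025 against WT, the fit with the replicate number as a block gave 2.13 for MYB44-like (adjusted p = 0.0562 in limma), -0.81 for bZIP (0.0895) and 0.97 for root abundant factor (0.0637). The correlation over probes of the replicate differences between lines was -0.07, 0.03 and -0.06, so that arrays with the same number did not deviate together. Whether samples with the same number were grown or processed together is not in the labels and cannot be told from these values. Normexp gave 1.31 for MYB44-like, short of 3-fold, and -0.54 for bZIP (0.062), and the methods' t-test on log2 signals gave 0.97 for root abundant factor (0.0566). The number of the 4 genes called higher fell from 1 to 0 with normexp and with the replicate block, and was between 0 and 1 with an array left out. Over these leave-one-out fits the log2 ratio was 2.06 to 2.20 for MYB44-like, -0.86 to -0.76 for bZIP and 0.88 to 1.06 for root abundant factor. In crt/KU-2025 against Ldn/KU-2025, normexp gave 2.38 for NAC and 2.18 for bZIP, the methods' t-test gave 1.55 for MYB44-like (0.0622), and the number called higher was 3 to 4.

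In crt/KU-2025 against WT, scaling to the 75th percentile gave 3.47 for MYB44-like, 3.31 for NAC and 2.74 for root abundant factor, and it moved the median of all probes from 0.10 to -0.11. Quantile normalization gave 3.31 for NAC, 2.19 for bZIP and 2.79 for root abundant factor. Normexp, here followed by quantile normalization, gave 2.43 for MYB44-like, 2.39 for NAC, 1.65 for bZIP and 2.63 for root abundant factor. Its offset of 50 is added to every signal and so shrinks the ratios of dim probes. How much each of these steps moved the ratios was not tested.

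The counts of list probes past the adjusted p were recomputed after seeing the data. In Ldn/KU-2025 against WT, with an array left out they ranged from 0 to 3 for the MYB, NAC and bZIP lists, 0 to 8 for phenylpropanoid, 0 to 6 for ABA-related, 0 to 5 for the other factors and 0 to 1 for AP2/ERF. The replicate block gave 1 for phenylpropanoid and ABA-related and 0 for the other lists. The MYB list had 1 by 75th percentile scaling and by quantile normalization, as had the other factors, which also had 1 with normexp, and the ABA-related list had 3 by quantile normalization. The NAC list had 0 by the methods' t-test and 1 on log2 signals. The bZIP list had 2 by both and with dim probes removed. With only the compared lines in the fit, 3 of the bZIP list, 8 of phenylpropanoid and 5 of the other factors passed, and 33.8% of all probes passed in that fit, against 7.83% in the fit of all arrays. For secondary wall probes in crt/KU-2025 against WT, the methods' t-test gave 6 in place of 11, and leaving out an array gave 10 to 12.

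Over all probes in Ldn/KU-2025 against WT, 367 were called higher and 74 lower. These counts were 133 and 116 without replicate 1 of WT, 80 and 76 without replicate 2 of WT, 61 and 15 with the first and 167 and 30 with the second Ldn/KU-2025 array left out, 529 and 114 without either crt/KU-2025 array or both, 142 and 30 with the replicate block, 86 and 24 with normexp, and 853 and 160 at 2-fold. In crt/KU-2025 against WT, 4462 and 4156 became 2009 and 2526 with normexp, 2584 and 3027 by the methods' t-test, 3641 and 2324 by that test on log2 signals, and 7852 and 6146 at 2-fold. In crt/KU-2025 against Ldn/KU-2025, 3552 and 3775 became 1576 and 2185, 1915 and 2658, 2758 and 2126, and 6785 and 5837 under the same settings.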
